A study of Mus musculus with 21 samples.

Results

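Hippocampal RNA of adult mice was examined here for 8 genes that mark layers of the neocortex, the sheet of cortex that lies over the hippocampus. The genes were Cux2, Rorb, Lamp5, Rspo1, Tshz2, Scnn1a, Tbr1 and Fezf2, 8 of the 55487 genes listed in the deposited counts table. The members were chosen by name as known layer markers, with their levels (read counts) in each of these mice already known, so their range and co-variation over mice are given as a description with no test. All 8 passed the filter on low counts that left 18146 genes for testing.

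The series held 21 hippocampal libraries, 1 from each male wild type C57BL/6 mouse at 10 weeks of age. The maternally separated group (MS, 9 mice) had been taken from the dam for 4 hours per day from postnatal day (PND) 10 to PND 17, in the light or the dark phase on alternating days, and per the study's methods most of the nesting material was removed from their cages. The standard reared group (SR, 12 mice) stayed with the dam. Whole nests were assigned to a condition, and the labels name no nest, but the animal numbers in the titles form 7 sets of 3 consecutive numbers, each set within 1 condition. The p-values below treat the mice as separate samples. Libraries are called MS 1 to MS 9 and SR 1 to SR 12, in the order of their records.

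The neocortex is built of layers that differ in the projections of their neurons, and each layer is known by transcription factors and surface proteins that its neurons make. The hippocampus next to it is a simpler cortex, with pyramidal neurons in the CA fields and granule cells in the dentate gyrus. Layer markers are not silent in the hippocampus, since several are also made by some of its interneurons or pyramidal neurons, so a level in a hippocampal sample has no single cellular source. In bulk RNA, fewer cells of a type and less RNA per cell cannot be told apart.

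Total counts ran from 17276810 to 30449055 per library. The library labelled MS 5 stood apart from the others and went against its label as hippocampus. All 7 dentate granule cell genes were below every other library in MS 5, with Dsp, a desmosomal protein of granule cells, at 0.693 CPM (counts scaled to the normalized library total) against 54.0 to 138 CPM elsewhere. So were 6 of 7 CA field genes. Ttr, the transthyretin of choroid plexus, was the farthest from its median of any listed gene, by -7.89 on the log2 scale. It stood at 5.28 CPM in MS 5, but already ran from 10.4 to 4105 CPM elsewhere. Of the 6 choroid plexus genes, 2 were within the range of the other libraries. All 10 striatal genes were above every other library in MS 5. Main values are given over the other 20 libraries, with MS 5 beside them. MS 5 was left out for its distance from the rest in a PCA (see the processing below), not for these genes.

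Cux2 and Lamp5 mark the upper layers. Cux2 (ENSMUSG00000042589, GRCm38 chr5:121856366-122050102, minus strand) encodes a cut-domain homeobox factor of layer 2 to 4 neurons, and was measured as reads over the exons of the gene. Its level in the 8 MS mice was lowest at 29.9 CPM in MS 7, 53.7 CPM at the median and highest at 121 CPM in MS 4. In the 12 SR mice it ran from 30.5 CPM in SR 3 over a median of 48.6 CPM to 96.4 CPM in SR 8. Both groups thus covered almost the same range, with MS 4 above every SR mouse. MS 5 held 95.7 CPM.

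Lamp5 (ENSMUSG00000027270, chr2:136052239-136069917, plus strand) encodes a lysosome-associated membrane protein of upper-layer neurons and of neurogliaform interneurons. In MS mice it ran from 28.3 CPM in MS 6 over a median of 34.0 CPM to 91.9 CPM in MS 4. In SR mice the lowest was 26.0 CPM in SR 12, the median 30.9 CPM and the highest 101 CPM in SR 8. SR 5 and SR 7 followed with 54.5 and 52.3 CPM, and the other mice of both groups were at or below the 45.8 CPM of MS 7. In MS 5 Lamp5 reached 101.95 CPM, above all other libraries.

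Rorb, Rspo1 and Scnn1a mark layer 4, the layer that receives thalamic input. Rorb (ENSMUSG00000036192, chr19:18930605-19111196, minus strand) encodes a nuclear receptor that shapes layer 4 neurons. Its levels were 12.8 CPM in MS 6, 15.9 CPM at the median and 27.3 CPM in MS 4 among MS mice. Among SR mice they were 14.6 CPM in SR 10, 16.5 CPM at the median and 23.8 CPM in SR 1. Rorb was also high in SR 5 and SR 8, at 22.6 and 21.9 CPM, and in MS 5, at 26.2 CPM.

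Rspo1 (ENSMUSG00000028871, chr4:124986430-125009099, plus strand) encodes R-spondin 1, a secreted amplifier of Wnt signalling. It was the scarcest and the most spread of the 8 genes. In MS mice it ran from 0.561 CPM in MS 8 over 1.22 CPM at the median to 5.81 CPM in MS 4. In SR mice it ran from 0.684 CPM in SR 9 over 1.02 CPM to 7.56 CPM in SR 8. These levels rest on few reads, 13 in MS 8 and 179 in SR 8, but the exact 95% Poisson intervals of 0.298 to 0.959 CPM and 6.49 to 8.75 CPM, which cover counting error only, are far apart. MS 5 had 7.12 CPM from 216 reads.

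Scnn1a (ENSMUSG00000030340, chr6:125320659-125344943, plus strand) encodes the alpha subunit of the epithelial sodium channel, whose promoter is widely used to reach layer 4 neurons. It was lowest at 7.04 CPM in MS 4 among MS mice, 8.53 CPM at the median and highest at 10.7 CPM in MS 1. The SR mice gave 6.67 CPM in SR 11, 9.14 CPM at the median and 10.3 CPM in SR 5. MS 4, the highest MS mouse for Rorb and Rspo1, was thus the lowest for Scnn1a, while SR 5 was high for all of them. MS 5 had 3.07 CPM, below every other library.

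Tshz2, Fezf2 and Tbr1 mark the deep layers. Tshz2 (ENSMUSG00000047907, chr2:169633013-170071816, plus strand) encodes a teashirt zinc finger factor of layer 5 neurons. It ran from 55.9 CPM in MS 8 over 90.3 CPM at the median to 128 CPM in MS 4, and in SR mice from 42.9 CPM in SR 3 over 101 CPM to 216 CPM in SR 8. In contrast to Lamp5 and Rspo1, Tshz2 was low in MS 5, at 56.2 CPM, within the range of the others.

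Fezf2 (ENSMUSG00000021743, chr14:12342094-12348189, minus strand) encodes the zinc finger factor that specifies subcerebral projection neurons of layer 5. It was the steadiest of the 8, with 31.2 CPM in MS 1, 36.2 CPM at the median and 43.0 CPM in MS 9 among MS mice. In SR mice it ran from 28.1 CPM in SR 3 over 39.3 CPM to 44.1 CPM in SR 4, and MS 5 lay inside at 34.8 CPM.

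Tbr1 (ENSMUSG00000035033, chr2:61802930-61814114, plus strand) encodes the T-box factor of layer 6 corticothalamic neurons. Its levels in MS mice were 34.5 CPM in MS 9, 47.1 CPM at the median and 86.2 CPM in MS 4. In SR mice they were 40.4 CPM in SR 6, 48.9 CPM at the median and 91.2 CPM in SR 8, and SR 5 and SR 7 followed at 68.6 and 69.5 CPM. MS 5 held 97.9 CPM, above all others. For 6 of the 8 genes the top MS mouse other than MS 5 was MS 4, and for 5 of the 8 the top SR mouse was SR 8.

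**Figure D1:**
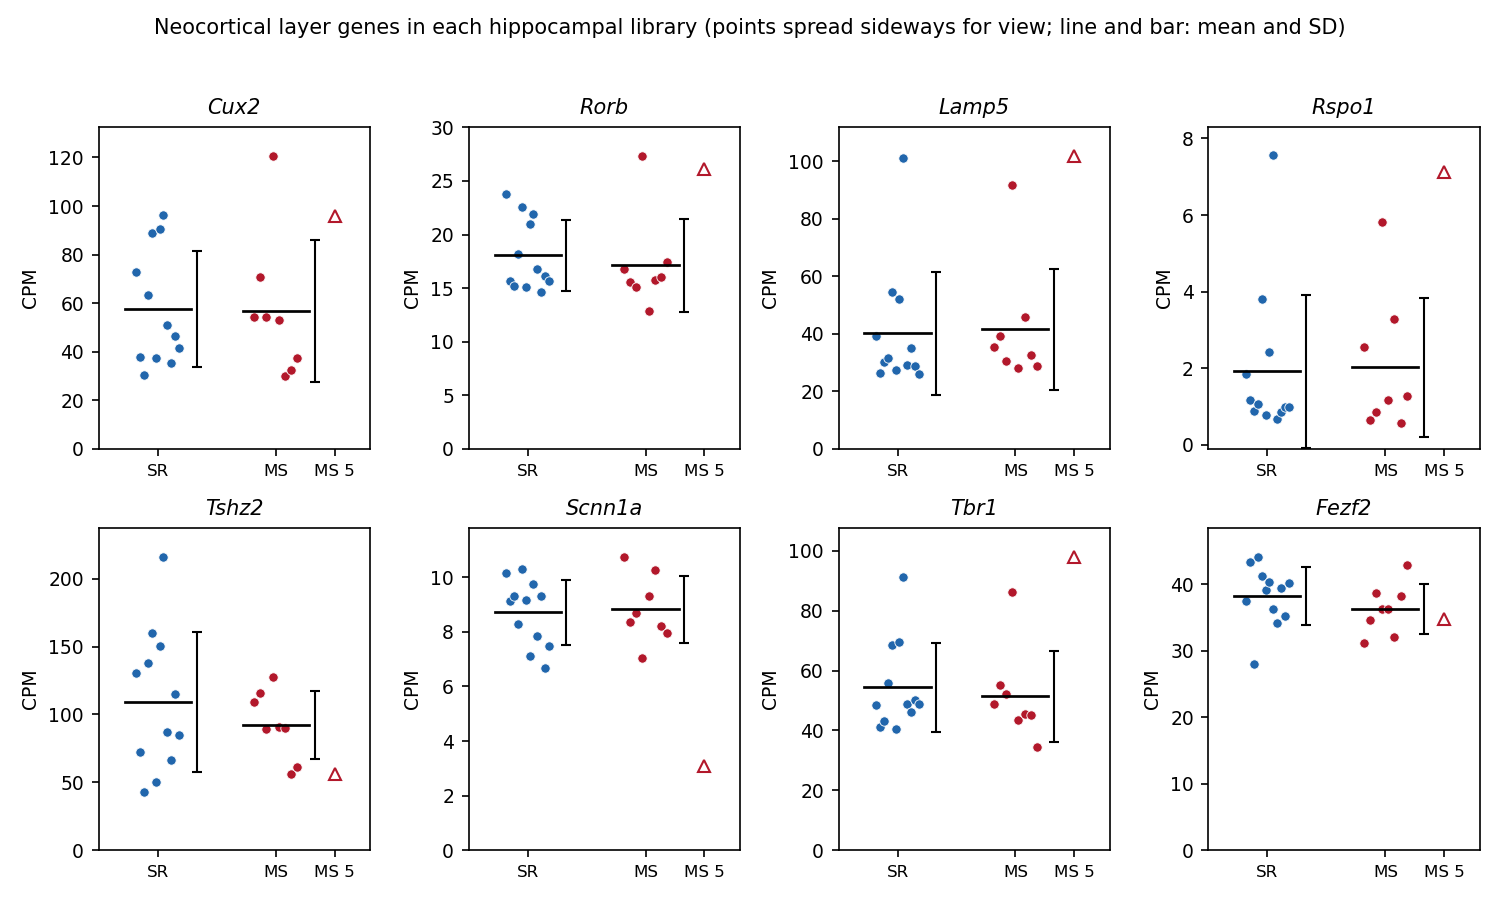
Normalized level (CPM, vertical axis) of the 8 layer genes in each library, with SR mice in blue, MS mice in red and MS 5 as an open triangle. Horizontal lines and bars are the mean and SD of the 12 SR and of the 8 other MS mice. The highest filled points of Cux2, Lamp5, Rspo1 and Tbr1 are MS 4 in red and SR 8 in blue, up to 121 CPM for Cux2 in MS 4. For Cux2, SR 7 and SR 5 lie close below SR 8, at 90.4 and 88.9 CPM.

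Lamp5 and Tbr1, the pair with the highest Pearson r over the 20 libraries (below), lie on the same chromosome far from each other. This rank depended on SR 8 and MS 4. Without these mice their r was 0.699, against 0.868 for Cux2 and Tshz2. By Spearman rho Cux2 and Tshz2 were also ahead, with 0.869 against 0.642. Their promoter windows, from 250 bases before to 50 bases after a RefSeq transcription start (GRCm38.p6), are shown because the genes moved together. Capitals mark TAATTA, a core motif of homeodomain factors.
Lamp5 (chr2:136052089-136052388, plus strand): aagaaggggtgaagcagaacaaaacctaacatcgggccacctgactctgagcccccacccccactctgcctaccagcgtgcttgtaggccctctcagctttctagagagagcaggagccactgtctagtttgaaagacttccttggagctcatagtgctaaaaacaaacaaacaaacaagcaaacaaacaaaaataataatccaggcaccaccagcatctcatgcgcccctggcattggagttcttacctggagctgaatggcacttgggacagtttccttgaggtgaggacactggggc
Tbr1 (chr2:61804203-61804502, plus strand): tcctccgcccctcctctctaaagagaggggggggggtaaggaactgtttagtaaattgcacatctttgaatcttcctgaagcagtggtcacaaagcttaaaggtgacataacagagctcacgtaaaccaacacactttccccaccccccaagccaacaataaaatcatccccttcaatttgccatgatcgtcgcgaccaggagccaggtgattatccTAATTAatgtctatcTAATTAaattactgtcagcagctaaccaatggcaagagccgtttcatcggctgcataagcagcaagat
The table held 10 windows of 7 of the 8 genes, all but Scnn1a. TAATTA, searched on both strands, was in 1 of the 10, the Tbr1 window, at 2 positions, where 5.29% of the 32851 windows of all genes held it. TCACACC, the T-box core, was in 0 of the 10 (3.98% of all windows), and AGGTCA, the half-site of ROR receptors, in 0 (16.3%). ATCGAT, the CUX core, was in 1, a downstream window of Cux2 (0.93%). CAGATG, an E-box of neuronal bHLH factors, was in 2, that window of Cux2 and a downstream window of Lamp5 (17.2%). The windows nearest the annotated gene starts differed in CpG content, with 3 CpG in Lamp5, 7 in Tbr1 and 48 in Cux2 against a median of 7 over all windows.

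Per kilobase of exon, mean levels over 20 libraries were 13.9 ± 7.10 CPM per kb for Lamp5 (SD, n = 20, as for the following), 13.2 ± 5.51 for Tshz2 and 12.3 ± 1.38 for Fezf2. Tbr1 followed with 9.69 ± 2.699 and Cux2 with 5.68 ± 2.52 CPM per kb. Scnn1a, Rorb and Rspo1 were the lowest, with 2.12 ± 0.286, 1.60 ± 0.333 and 1.01 ± 0.966 CPM per kb. Neighbours in this order from Lamp5 to Tbr1, and Rorb and Rspo1, differed by less than the larger of their SDs.

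The genes also differed in their spread over mice. The SD of log2 CPM over the 20 libraries was 1.03 for Rspo1, larger than that of 99.2% of the 18146 genes. It was 0.603 for Tshz2, 0.598 for Cux2 and 0.560 for Lamp5, each larger than in over 93% of genes. Tbr1 and Rorb had SDs of 0.356 and 0.275, and Scnn1a and Fezf2, with 0.197 and 0.167, were close to the median gene, at 0.176. In linear terms the highest library exceeded the lowest 13.5-fold for Rspo1, 5.03-fold for Tshz2, 4.03-fold for Cux2 and 3.89-fold for Lamp5. The ratio was 2.64 for Tbr1, 2.13 for Rorb, 1.61 for Scnn1a and 1.57 for Fezf2. The highest library was SR 8 for Rspo1, Tshz2, Lamp5 and Tbr1, MS 4 for Cux2 and Rorb, MS 1 for Scnn1a and SR 4 for Fezf2.

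Levels differed between mice of neighbouring animal numbers. SR 7, SR 8 and SR 11 form a set, with Lamp5 at 52.3, 101 and 28.9 CPM. MS 4 and MS 6 belong to the same set and had 91.9 and 28.3 CPM. For Cux2, SR 1, SR 2 and SR 3 held 73.0, 37.8 and 30.5 CPM, a 2.39-fold range within a set. MS 1, MS 2 and MS 3 were closer to each other, with a 1.31-fold range of Cux2. In the 6 mice of the sets with the higher animal numbers, MS 7 to MS 9 and SR 9, SR 10 and SR 12, Cux2 lay between 29.9 and 50.9 CPM.

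**Figure D2:**
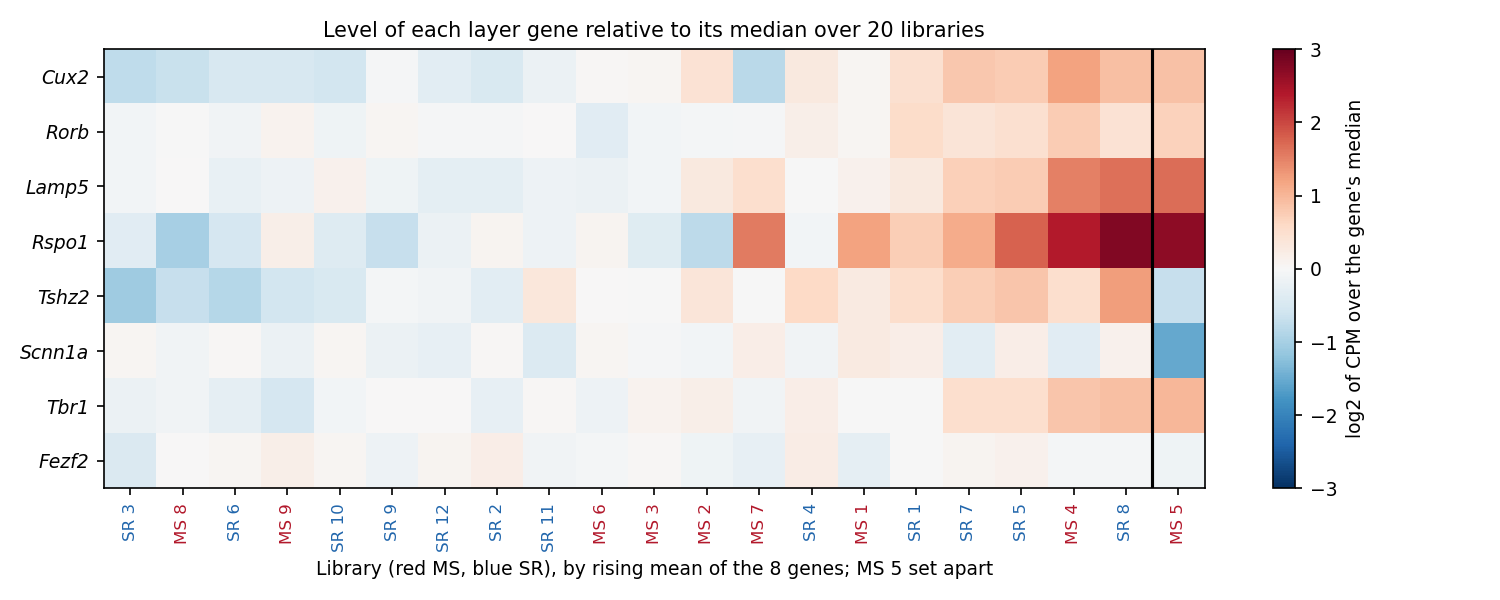
Colour gives the log2 ratio of each gene's CPM to its median over 20 libraries, for the 8 genes (rows) in the libraries (columns, MS red and SR blue) ordered by the mean of the 8 genes, with MS 5 set apart on the right. Both groups are mixed along the order, and Scnn1a and Fezf2 stay pale in SR 8 and MS 4 where Rspo1 reaches 7.56 and 5.81 CPM.

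Cux2, Rorb, Lamp5, Rspo1, Tshz2 and Tbr1 varied together from mouse to mouse. Over the 20 libraries Scnn1a and Fezf2 followed neither these genes nor each other. Over the 28 pairs of the 8 genes the median Pearson r of log2 CPM was 0.638 (20 libraries), with a range from -0.24 between Scnn1a and Fezf2 to 0.881 between Lamp5 and Tbr1. All 15 pairs among the 6 genes exceeded 0.5, and none of the 13 pairs with Scnn1a or Fezf2 did. Cux2 and Tbr1 reached 0.862 and Cux2 and Tshz2 0.855. Correlated with the mean of the other 7 genes, Lamp5 gave 0.879, Tbr1 0.871, Cux2 0.814, Rorb 0.809, Tshz2 0.808 and Rspo1 0.803. Scnn1a gave 0.0232 and Fezf2 0.0179. Mice of a nest are not independent points, and no p is given.

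The size of these correlations depended on the mice included. The median Spearman rho was 0.429 in place of the r of 0.638. Without SR 8 and MS 4, the mice farthest from the median of the genes' mean, the median r was 0.422 with 13 pairs above 0.5. It was 0.737 within SR (12 mice) and 0.361 within MS (8 mice), and 0.636 after the group means were subtracted. Within the sets of lower animal numbers it was 0.662 (14 mice). Within those of higher numbers it was 0.0197 over 6 mice, in which the mean of the 8 genes covered a narrower range (below). With MS 5 included the median r was 0.440. Tshz2 and Scnn1a were low in that library while Lamp5 and Tbr1 were high. Within MS, 10 of the 28 pairs had an r below 0, all with Scnn1a or Fezf2, down to -0.68 between Scnn1a and Fezf2. Within SR, 2 pairs were below 0, and Scnn1a and Fezf2 gave -0.004.

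**Figure D3:**
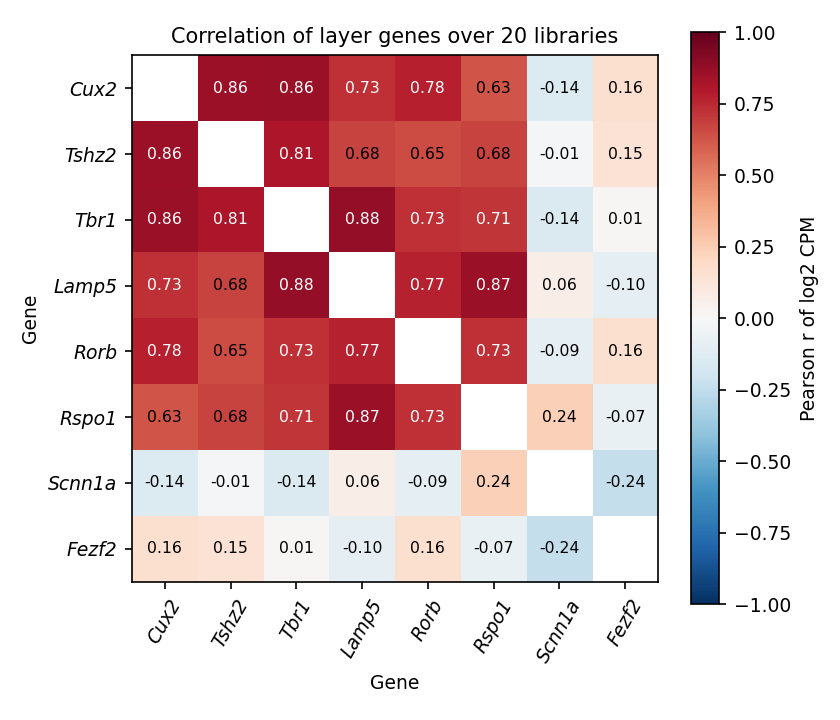
Pearson r of log2 CPM over 20 libraries for each pair of the 8 genes, printed in the cells and shown by colour from -1 (blue) to 1 (red). The 15 cells among Cux2, Tshz2, Tbr1, Lamp5, Rorb and Rspo1 lie between 0.63 and 0.88, and those with Scnn1a or Fezf2 between -0.24 and 0.24.

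Other genes of the neocortical layers followed the same mice. The mean of 24 further layer genes had an r of 0.887 with the mean of the 8 genes (rho 0.877), and 17 of the 24 had an r above 0.5, against 11.6% of all genes tested. High values were those of Mef2c, a MADS-box factor of cortical neurons, with 0.935 and of the potassium channel gene Kcnh5 with 0.873. The lowest were Crym, a thyroid hormone-binding crystallin also made in the hippocampus, with -0.79, the monooxygenase-like gene Moxd1 with -0.37 and Hsd11b1, which regenerates glucocorticoid, with -0.25. Without SR 8 and MS 4 the r of the list was 0.820. It was 0.938 within the sets of lower animal numbers, but -0.025 within those of higher numbers, so the relation was not seen there.

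Genes of the hippocampal principal cells ran the other way. The mean of the 7 dentate granule cell genes had an r of -0.86 with the mean of the 8 layer genes (rho -0.84), and all 7 were below -0.5, against 11.1% of all genes. For the 7 CA field genes the r of the means was -0.91 (rho -0.83), with 6 of 7 genes below -0.5 and Mpped1 at 0.187. The relation was present within MS, at -0.76 and -0.83, and within SR, at -0.93 and -0.94. Without SR 8 and MS 4 it was -0.76 and -0.80. Within the 6 mice of higher animal numbers it was 0.0186 and 0.234, with the same limit of a narrow range. CPM are shares of a total. Whether this, or tissue taken with the hippocampus, had a part in these levels was not tested.

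Striatal and interneuron genes moved with the layer genes less evenly. The 10 striatal genes had an r of 0.602 between the means (rho 0.814), and 5 of the 10 exceeded 0.5. SR 8 was high for both. MS 1, which was the highest of the 20 for the striatal list, had a layer gene mean of 0.107 (centred log2), against 0.886 in SR 8. Without MS 1 the r was 0.812, and without SR 8 it was 0.438. The mean of 7 interneuron genes gave 0.817, although only Vip, at 0.852, and Pvalb, at 0.763, exceeded 0.5, and Ndnf, a neurogliaform gene, stood at -0.45. The subiculum list, with 3 genes, gave 0.529, mature oligodendrocytes 0.248, thalamus 0.0445 and choroid plexus -0.14.

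**Figure D4:**
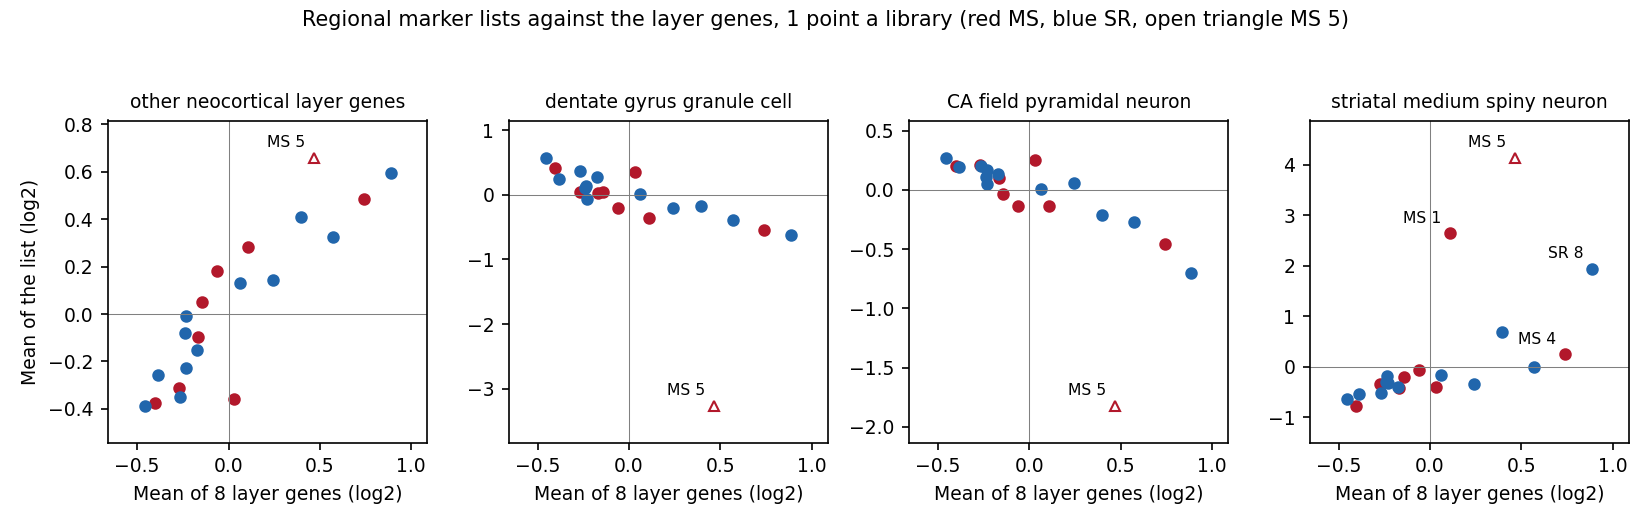
Each point is a library, with the mean centred log2 CPM of the 8 layer genes on the horizontal axis and that of a regional marker list on the vertical axis of each panel (SR blue, MS red, MS 5 an open triangle). The further layer genes rise (r = 0.887 without MS 5) and the dentate and CA lists fall (-0.86 and -0.91) along the axis, and MS 5 lies far below in both hippocampal lists.

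Among 15772 genes of at least 1 CPM outside the lists, the most similar to the mean of the 8 genes over the 20 libraries was Osbpl1a, an oxysterol-binding protein gene, with an r of 0.962. Rims3, which encodes a protein of presynaptic active zones, had 0.959 and ran from 41.3 to 175 CPM, and Gm11549 had 0.958. Ccdc184, Gcnt4, Rassf3, Ntm, Sowahb, Ankrd34c and Cadm4 completed the first 10, down to 0.948. The most opposed were Dnah9, an axonemal dynein gene, with -0.94 and the protease inhibitor gene Serpina3n with -0.94. Tanc1, Tspan18 and the semaphorin receptor gene Nrp2 followed, down to -0.92. In all, 76 of the 15772 genes had an r above 0.9, and none of the genes named here was called between MS and SR.

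The comparison of MS with SR asks whether rearing changed the levels of these genes in the adult hippocampus. No difference between MS and SR was detected for any of the 8 genes. The groups overlapped for all 8, but the share of all genes with overlapping groups is not given here. In edgeR's quasi-likelihood test, adjusted by Benjamini-Hochberg for 18146 genes, 0 of 8 passed an adjusted p of 0.05, where 0.011% of genes passed (2 genes). At an unadjusted p of 0.05, 0 of 8 passed as well, against 11.5% of genes. DESeq2 called 0 of the 7 genes to which it gave an adjusted p, all but Rspo1, against 0.966% of genes with an adjusted p (134 genes). At an unadjusted p of 0.05 it had 0 of 8. The median log2 fold change of the 8 genes was -0.05, and that of all genes 0.00084. The fold changes of 5 of the 8 were negative, as were those of 49.7% of all genes.

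Over these 20 libraries Tshz2 had the largest difference, with 92.4 ± 24.998 CPM in MS (SD, n = 8) and 109 ± 51.4 CPM in SR (n = 12). Its log2 fold change, MS minus SR, was -0.24 (SE 0.273, 95% interval -0.82 to 0.33, edgeR adjusted p = 0.782), and it was -0.11 without SR 8. Cux2, at 56.7 ± 29.2 and 57.7 ± 23.9 CPM, gave -0.03 with an interval from -0.62 to 0.57. For Lamp5, at 41.6 ± 21.2 and 40.2 ± 21.5 CPM, the log2 fold change was 0.05, between -0.55 and 0.65. Rspo1, at 2.02 ± 1.81 and 1.92 ± 1.99 CPM, gave 0.07 between -1.04 and 1.18, so that a doubling in either direction lay inside its interval. The wide intervals are those of the genes that varied most from mouse to mouse.

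The steadier genes had narrower intervals. Fezf2 had 36.3 ± 3.801 CPM in MS and 38.3 ± 4.41 CPM in SR, a log2 fold change of -0.08 (SE 0.0697, -0.22 to 0.07) and the smallest edgeR adjusted p of the 8, 0.716. Scnn1a, at 8.83 ± 1.23 and 8.72 ± 1.20 CPM, gave 0.02 between -0.17 and 0.21. Rorb, at 17.1 ± 4.35 and 18.1 ± 3.32 CPM, gave -0.08 between -0.34 and 0.18. Tbr1, at 51.3 ± 15.4 and 54.4 ± 15.0 CPM, gave -0.08 between -0.44 and 0.27. The direction of Cux2, Lamp5, Rspo1, Scnn1a and Tbr1 changed with single libraries. Without MS 4 the log2 fold changes were -0.29 for Cux2, -0.23 for Lamp5, -0.33 for Tshz2 and -0.39 for Rspo1, and without SR 8 Lamp5 gave 0.266 and Rspo1 0.520.

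**Figure D5:**
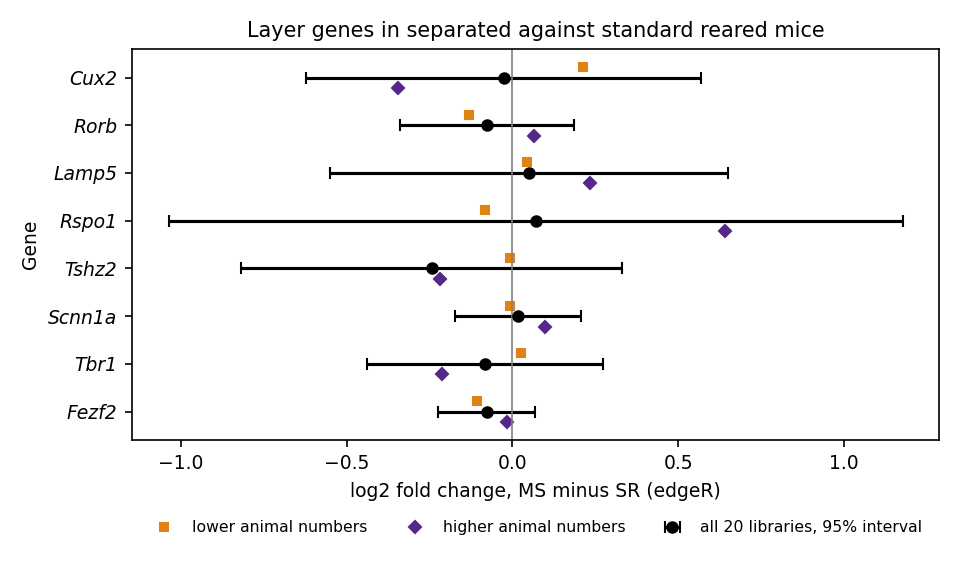
Log2 fold change, MS minus SR, of the 8 genes by edgeR over 20 libraries (black points with 95% intervals). Orange squares (sets of lower animal numbers) and purple diamonds (higher numbers) are differences of mean log2 CPM, not edgeR estimates, though drawn on the same axis. Every interval includes 0, and the interval of Rspo1, from -1.04 to 1.18, is the widest.

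No dependence of the difference on the range of animal numbers was detected. The interaction of rearing with the range of animal numbers was called for 0 of 8 genes (edgeR, adjusted p from 0.820 to 0.992), where 0% of 19370 genes were called and 1651 had an unadjusted p under 0.05, none of them among the 8. Within the lower numbers the differences of mean log2 CPM, MS minus SR, ran from -0.13 for Rorb to 0.212 for Cux2. Such differences are not edgeR estimates and need not bracket the edgeR fold changes over 20 libraries. Within the higher numbers, with 3 mice a group, they ran from -0.35 for Cux2 to 0.641 for Rspo1.

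None of the 24 further layer genes was called either, with 12 higher and 12 lower in MS and a median log2 fold change of 0.0015. The largest were 0.37 for Syt6, 0.36 for the layer 6 factor gene Foxp2 and 0.25 for Whrn, and the smallest -0.30 for Kcnh5 and -0.18 for Ccn2. No gene of the dentate, CA field, striatal, thalamic, subicular, choroid plexus, interneuron or oligodendrocyte lists was called. In edgeR 1 of their genes, Opalin, had an unadjusted p under 0.05, where 11.5% of all genes tested did. The striatal list was higher in MS for 10 of 10 genes, with a median of 0.475, but this direction rested on MS 1. Without MS 1 it was higher for 1 of 10, with a median of -0.46, and without SR 8 the median was 0.770. The choroid plexus list was higher in MS for 6 of 6 genes, with a median of 0.911. Its mean (centred log2) ran from -3.10 to 2.15 in the MS mice and from -3.45 to 2.15 in the SR mice. MS 5, left out here, stood at -4.42. The dentate and CA field lists had 5 of 7 genes lower in MS each, with medians of -0.07 and -0.05. Without MS 4 these medians were 0.0061 and 0.0241. The part of these lists in the comparison was not tested.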

How the data were processed

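Total RNA of hippocampus was extracted with Trizol, and poly-A directional libraries were sequenced as 150-base read pairs. Per the labels and the study's methods, reads were aligned with STAR 2.7.3a to GRCm38 and counted per gene with featureCounts; the strand setting was not given in the sources used here. The authors deposited raw counts per Ensembl gene in 1 table, and all its columns were mapped by title. Symbols, coordinates and exon lengths came from GENCODE M21 for 55227 of 55487 genes, and promoter windows from RefSeq.

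Counts were tested as deposited with edgeR 4.0.16 (R 4.3.3): filterByExpr with a minimum count of 10, TMM, robust quasi-likelihood fit, MS against SR with no covariate, adjusted p threshold 0.05. As the study left out 1 library found by PCA and clustering, without naming it, the library farthest from the rest in a PCA on 500 genes, MS 5, was left out; whether it is the same library is not given in the sources used here. DESeq2 1.42.0 and limma 3.58.1 served as alternatives. CPM use TMM-scaled totals, and correlations log2 CPM with a prior count of 2. The test was checked on simulated counts, drawn with the same dispersion for every gene and with independent mice. That check therefore does not cover genes as variable as Rspo1, nor mice that share a nest. No pair of libraries agreed within sampling noise.

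The members and the marker lists were chosen with earlier results of these data known. Named genes were the 8 members, of the further layer genes the 3 highest and 3 lowest by fold change and by r, the 10 most and 5 least similar genes outside the lists, and the 2 listed genes farthest from their median in MS 5; Mpped1, Vip, Pvalb, Ndnf and Opalin were named after their values were seen. Some results that this rule selects are not reported here. TAATTA and CAGATG were searched after the promoter windows had been read. Intervals of counts cover counting error only.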

Additional observations from a re-analysis of the deposited data

Results flagged for a closer look

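The gap of the most distant MS library to the others was set against Dixon's criterion for each of the 8 genes. This was done with and without MS 5, 16 times in all. For normally distributed values chance alone passes the criterion about 1 in 20 times. Unlogged CPM were used, and whether they were normally distributed was not tested. The levels in each mouse were known when the genes were chosen, so the criterion serves as a description and not as a test. Without MS 5, the gap of MS 4 above the other 7 MS mice passed it for Cux2 at 120.67 CPM, Rorb at 27.341 CPM, Lamp5 at 91.877 CPM and Tbr1 at 86.155 CPM. These 4 genes move together over mice and are not independent of each other. With MS 5 included, Scnn1a at 3.0673 CPM in MS 5 passed it below the other 8 MS mice. The 12 SR mice were too many for the criterion, which covers groups of 4 to 10.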

How the results depend on the processing

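None of the 8 genes was called under the alternatives run, DESeq2 giving an adjusted p to 7 of them and none to Rspo1, and their smallest adjusted p was 0.448, for Rorb without MS 4. The count of called genes, 2, was 1 with all 21 libraries, 134 with DESeq2, 1 with no filter, 0 by limma-voom with the number set as a random block (correlation within sets 0.0466), 0 with counts summed within sets, and 0 when MS 1, MS 4 and SR 8 were left out together, an alternative chosen after seeing the data. Leaving out single libraries or sets gave 0 to 340 called genes, with 109 without MS 8, 109 without MS 9, 340 without the set of both and MS 7, and 0 without MS 1, MS 2, MS 4, MS 6, SR 1, SR 5 or SR 11; the cause was not tested. No paired analysis was possible because the replicate numbers only follow the order of the records. With all 21 libraries the log2 fold change turned to 0.0819 for Cux2, 0.00779 for Rorb, -0.0965 for Scnn1a and 0.0584 for Tbr1. Cux2 was 0.01 with a term for the animal number range and 0.0402 with summed sets, and without the 3 libraries Lamp5 was -0.0177 and Rspo1 -0.114. Leaving out single libraries or sets moved Cux2 from -0.313 to 0.293, Rorb from -0.211 to -0.0151, Lamp5 from -0.23 to 0.323, Rspo1 from -0.394 to 0.593, Tshz2 from -0.374 to 0.000946, Scnn1a from -0.0298 to 0.06, Tbr1 from -0.234 to 0.0717 and the median of the 8 from -0.232 to 0.0433. The median r of 0.638 ran from 0.56 without SR 8 to 0.677 without MS 2. The r with the further layer genes was 0.82 without the 3 libraries; with the dentate list it was -0.577 with all 21 libraries and -0.767 without the 3; with the CA field list it was -0.687, and -0.796, with a rho of -0.833. With the striatal list rho was 0.814 and single libraries moved r from 0.438 to 0.812, and with the subiculum list all 21 libraries gave 0.349. Depth limits Rspo1, with as few as 12 counts in a library.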

Other observations

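Choroid plexus genes varied more over mice than the layer genes and did not follow them. The summed level of the 6 choroid plexus genes ran from 52.3 to 4162 CPM in the 8 MS mice and from 28.6 to 4488 CPM in the 12 SR mice, while that of the 8 layer genes ran from 229 to 503 and from 200 to 580 CPM. The list's mean had an r of -0.14 with the layer genes over 20 libraries, 0.418 within MS and -0.38 within SR. In MS 5 its summed level was 13.0 CPM.

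Striatal genes were high in MS 1 and SR 8 among the 20 libraries, with means of 2.65 and 1.94 on the centred log2 scale, and the layer genes stood at 0.107 and 0.886 in the same libraries. MS 1 also had the highest thalamus list mean, 0.775, and the highest subiculum list mean, 0.700. Mature oligodendrocyte genes, which are abundant in white matter, summed to 3827 to 7505 CPM in MS mice and 4697 to 7143 CPM in SR mice, and to 9054 CPM in MS 5.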
